A study of Danio rerio with 20 samples.

Results

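Embryos injected with a morpholino against TUT4 alone (TUT4MO) were compared with embryos injected with a control morpholino (ConMO) at 2, 4 and 6 hours post fertilization (hpf). The comparison held the 6 of 20 libraries of the series that belong to these groups in the experimental set named rs1a, 1 library a group at each of 3 matched hours. TUT4 and TUT7 are terminal uridylyltransferases, enzymes that add uridines to the 3′ ends of RNAs with short poly(A) tails, and uridylated RNAs are then open to decay. In zebrafish the egg supplies mRNAs that drive the first divisions, and during the maternal-to-zygotic transition a large share of these mRNAs is degraded while transcription of the embryo's own genome begins.

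All embryos were zebrafish of the wild-type strain AB from natural matings. They received about 1 nl of morpholino solution at the 1-cell stage and were collected whole, so every level is an average over all cell types of the embryo and its yolk. Control embryos were injected as well, so that injection itself is shared by both groups. The same set also holds embryos injected against TUT7 (TUT7MO) and against both enzymes (TUT47MO), used here only to show where TUT4MO differed. Sets rs1b and rs2, which the series text calls independent, supplied ConMO libraries from which classes of genes were drawn. How many embryos went into a library, the morpholino doses and the sequences they bind are not given by the labels. RNA was depleted of ribosomal RNA, not selected by poly(A), so a change in a level is not a change in tail length.

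The 6 libraries held between 14800000 and 32800000 estimated reads. Reads of 2 entries named for a mitochondrial contig (AC024175.4 and AC024175.17) took 9.88 to 14.4% of reads at 2 and 4 hpf and 48.0 and 48.4% at 6 hpf, close together within each pair. Levels below are in CPM, each entry's estimated reads relative to the total of its library, scaled by the TMM method over the 6 libraries, and a log2 change is TUT4MO minus ConMO on log2(CPM + 1), which understates the change of low genes. With 1 library a group at each hour a single hour has no replicate check, and a value for 1 hour compares 2 libraries. The fit over the hours uses the 3 hours as replicates of the morpholino's effect.

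The mRNAs of TUT4, the target, and of TUT7, which TUT4MO does not target, stood at nearly the same level in both groups. For zcchc11, the entry of TUT4, ConMO gave 98.7, 108 and 116 CPM at 2, 4 and 6 hpf and TUT4MO gave 93.7, 109 and 116 CPM. The log2 change over the hours was −0.02 ± 0.09 (SE, 3 pairs). On a gene's change or slope, here and below, ± is limma's moderated SE, which also draws on the spread of other genes. For ZCCHC6, the entry of TUT7, ConMO gave 161, 173 and 247 CPM and TUT4MO gave 163, 164 and 236 CPM, a log2 change of −0.04 ± 0.09 (SE, 3 pairs). Neither gene passed limma's test, with adjusted p of 0.959 for zcchc11 and 0.902 for ZCCHC6. A morpholino can act by blocking translation or splicing and leave the mRNA level as it was, so these levels do not check how far the TUT4 protein was lowered, and no measure of the protein was used here.

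Over the 3 hours together, no gene passed the threshold in either direction. Of 16904 genes tested with limma (hour and morpholino as terms, Benjamini-Hochberg adjustment at 0.05), 0 were higher and 0 lower in TUT4MO (0% each), and the smallest adjusted p was 0.833. At an unadjusted p under 0.05 there were 286 genes (1.69%). A change held by 1 hour alone enlarges the residual of this fit and can be missed by it. The quasi-likelihood test of edgeR called 0 genes and had 631 at that unadjusted level. DESeq2 called 0 higher and 3 lower: fgfr4, a fibroblast growth factor receptor, by −1.23, and the unnamed genes zgc:100868 by −2.05 and si:ch211-155k24.9 by −3.59.

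The genes with the smallest p over the hours were picked among named genes with a mean of at least 5 CPM. They also had to have the same sign at all 3 hours, so the shared sign was set by the choice. For some of them the size of the change differed between the hours. The lower side was led by polr2a, the largest subunit of RNA polymerase II, which had 37.7, 61.2 and 169 CPM in ConMO and 23.1, 48.4 and 102 CPM in TUT4MO. TUT4MO was thus the lower library at all 3 hours, with a log2 change of −0.58 ± 0.12 (SE, 3 pairs; limma adjusted p = 0.833). Behind it came ppl, which encodes the cell junction protein periplakin, at −0.56 ± 0.12, and smarcc1a, a subunit of the SWI/SNF chromatin remodeller, at −0.43 ± 0.10. At 6 hpf smarcc1a had 120 CPM both in TUT4MO and in a control of set rs1b, and 168 CPM in the rs1a control, on a scale of those 3 libraries. The Notch-modifying glycosyltransferase gene lfng stood at −0.50 ± 0.12 and psmb6, a proteasome subunit, at −0.79 ± 0.20, with changes of −0.34, −0.94 and −1.10. On the higher side stood TMSB15A, an actin-binding thymosin, with 210, 99.7 and 17.7 CPM in ConMO and 265, 135 and 22.7 CPM in TUT4MO. Its log2 changes of 0.34, 0.43 and 0.34 were nearly the same at each hour, 0.37 ± 0.09 over the hours (SE, 3 pairs; limma adjusted p = 0.833). The small GTPase gene arl13a followed at 0.43 ± 0.12 and the vesicle fusion gene vamp5 at 0.55 ± 0.16. The other 2 were entries of U1, the spliceosomal small nuclear RNA, at 0.70 ± 0.17 and 0.58 ± 0.16; 382 entries carry that symbol and can share reads, so the split among them is uncertain.

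The hours differed in size, and nearly all of the departure between the groups stood at 6 hpf. Among genes with a mean of at least 10 CPM in the pair, 12 of 9036 were 2-fold or more higher in TUT4MO at 2 hpf (0.133%) and 0 were lower (0%). At 4 hpf 2 of 8923 were higher (0.0224%) and 3 lower (0.0336%). At 6 hpf 243 of 8658 were higher (2.81%) and 435 lower (5.02%). The SD of the log2 change over genes was 0.15 at 2 hpf, 0.16 at 4 hpf and 0.56 at 6 hpf. The median change stayed near 0, at 0, 0.01 and −0.05.

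**Figure D1:**
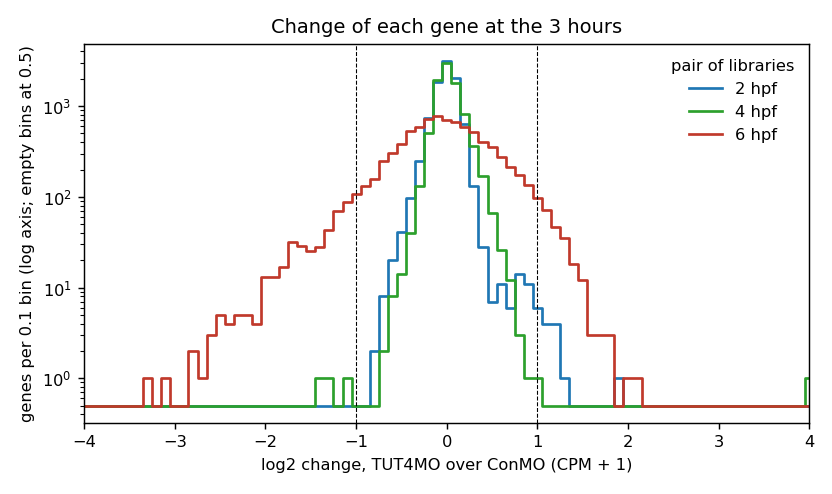
Number of genes (log axis) by log2 change of TUT4MO over ConMO in each pair of libraries, for genes with a mean of at least 10 CPM in the pair; dashed lines mark 2-fold and values beyond 4 are placed at 4. The distributions at 2 and 4 hpf, with SDs of 0.15 and 0.16, are narrower than that at 6 hpf, with an SD of 0.56, except for 1 adob entry at 4 hpf.

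A fit of the change against the hour asked whether the change rose or fell in a straight line over the hours. It called 58 genes whose change rose with the hour (0.343%) and 91 whose change fell (0.538%) in limma, with 3058 genes at an unadjusted p under 0.05 (18.1%). The fit has 1 residual degree of freedom, a gene's departure from that line, so the spread was borrowed mostly from other genes. No spread between replicates of an hour enters it. A gene near 0 CPM in both groups at the early hours owes its slope mostly to the later pairs. The counts moved with the settings: edgeR called 2 and 7, and a fit over all 12 libraries of the set called 0 and 0.

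The steepest rises with the hour belonged to ldlra, a low-density lipoprotein receptor gene, mtmr3, a phosphoinositide phosphatase gene, and gbx2, a homeobox gene of the neural plate. For ldlra ConMO had 5.34, 3.15 and 0.485 CPM and TUT4MO had 5.2, 3.8 and 18.4 CPM, so that only the 6 hpf pair was apart. Its change rose by 0.93 ± 0.16 per hour on the log2 scale (SE; limma adjusted p = 0.02). For gbx2 ConMO stayed at 0.789, 0.373 and 0.378 CPM, while TUT4MO went from 0.711 and 0.487 to 4.84 CPM, a slope of 0.54 ± 0.12 (limma adjusted p = 0.0452). The entry of mtmr3, 1 of 2 with that symbol, had 1.23, 0 and 0.0251 CPM in ConMO and 0, 0.659 and 1.2 CPM in TUT4MO, so its slope of 0.56 ± 0.11 (limma adjusted p = 0.0308) belongs to a gene of low level that was the lower one in TUT4MO at 2 hpf. The steepest falls belonged to kif26ab, a kinesin gene, her3, a Hairy/E(spl) repressor gene, and dpp7, a dipeptidyl peptidase gene. The level of her3 was 0, 6.29 and 9.38 CPM in ConMO and 0, 2.24 and 0.328 CPM in TUT4MO, so that TUT4MO was lower from 4 hpf on, with a slope of −0.74 ± 0.11 (limma adjusted p = 0.00935). The slopes were −0.83 ± 0.16 for kif26ab and −0.72 ± 0.13 for dpp7. The fit over all 12 libraries kept these 6 slopes within 0.01 of their values but gave each an adjusted p of 0.699. In edgeR, 5 of the 6, all but mtmr3, missed the threshold.

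At 2 hpf the 12 entries past 2-fold were all small structured RNAs. They were 9 entries of Metazoa_SRP, the RNA of the signal recognition particle, and 1 each of 5_8S_rRNA, RNase_MRP and RNaseP_nuc, the last 2 being the RNA parts of ribonucleases that trim rRNA and tRNA precursors. Summed over all 81 entries of its name, Metazoa_SRP had 14900, 26300 and 57700 CPM in ConMO and 25400, 26100 and 44400 CPM in TUT4MO. TUT4MO was higher at 2 hpf by 0.77, level at 4 hpf at −0.01 and lower at 6 hpf by −0.38 on the log2 scale. The RNA of 5_8S_rRNA had 264, 1050 and 888 CPM in ConMO and 982, 1220 and 589 CPM in TUT4MO, and RNaseP_nuc had 125, 255 and 1060 against 265, 292 and 760 CPM. Both thus passed from higher at 2 hpf to lower at 6 hpf. These names were looked at after their values were seen, and near-identical copies can share reads. At 2 hpf each of these names was also above ConMO in TUT7MO and TUT47MO, a comparison that shares the 1 ConMO library. The summed log2 changes in TUT7MO and TUT47MO were 0.63 and 0.45 for Metazoa_SRP and 2.25 and 1.39 for 5_8S_rRNA. For RNase_MRP they were 1.45 and 0.77, and for RNaseP_nuc 1.23 and 0.6. The libraries were depleted of ribosomal RNA, and the part of that step in the 5_8S_rRNA values was not tested.

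Among mRNAs at 2 hpf the lowest changes belonged to chromatin genes and 1 gene of vesicle transport, all short of 2-fold. The histone H3 lysine 4 methyltransferase gene setd1a had 33.0 CPM in ConMO and 18.3 CPM in TUT4MO, a log2 change of −0.81. At 4 hpf the same gene had 37.3 and 37.2 CPM, and at 6 hpf 36.7 and 46.5 CPM, so its levels no longer stood apart at 4 hpf. The Sin3 corepressor subunit gene sap130b was at −0.72, the methyltransferase gene ash1l at −0.72 and the COPII coat gene sec24a at −0.71.

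At 4 hpf 5 entries were past 2-fold. The transcription cofactor gene vgll4l had 0.557, 36.3 and 53.5 CPM in ConMO and 0.420, 13.4 and 75.7 CPM in TUT4MO, lower at 4 hpf by −1.37 and higher at 6 hpf by 0.49. The receptor gene fgfr4 was lower at both later hours, with 0.0463, 32.3 and 268 CPM in ConMO and 0.0323, 14.8 and 111 CPM in TUT4MO. Both genes belonged to the zygotic class defined below. A pair of entries for adob moved against each other, at 4.78 and −1.32. Summed, adob gave 48.7, 35.3 and 5.28 CPM in ConMO and 48.5, 40.7 and 12.2 CPM in TUT4MO, a difference of 0.20 at 4 hpf and of 1.07 at 6 hpf; whether reads were split differently between the entries was not tested. The fifth entry was the unnamed si:dkeyp-3b12.11 at 1.00. Short of 2-fold, the RNA polymerase subunit gene polr1d was at 0.85, the filamin-interacting gene filip1a at 0.90, the methyltransferase gene mettl21a at 0.78 and the zinc finger cofactor gene zfpm2b at 0.76. On the lower side the egg coat gene zp2.6 was at −0.67 and the RNA-binding gene mex3b at −0.65.

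Maternal and zygotic genes were then followed as classes, drawn from the ConMO libraries of sets rs1b and rs2, in which no rs1a library took part. Maternal genes had at least 5 CPM at 3 hpf in both sets. Of these, 3581 cleared genes had a mean log2 change of −1 or lower by the late hour (6 hpf in rs1b, 5 hpf in rs2) and 2865 stable genes stayed within 0.5 of 0. A further 990 zygotic genes were under 1 CPM at 3 hpf in each set and reached a late mean of at least 5 CPM.

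Cleared maternal mRNAs stood higher in TUT4MO at 6 hpf, and zygotic mRNAs stood lower. The median change of cleared genes was 0.01 at 2 hpf, 0.05 at 4 hpf and 0.42 at 6 hpf, where 81.5% were higher and 324 (9.05%) were 2-fold or more higher. Stable genes had medians of 0, −0.01 and −0.01, with 49.3% higher at 6 hpf. Zygotic genes had medians of 0, −0.01 and −0.65, with 84.2% lower at 6 hpf and 306 (30.9%) 2-fold or more lower. At 6 hpf the quartiles of each class ran from 0.10 to 0.73 for cleared, from −0.24 to 0.21 for stable and from −1.12 to −0.19 for zygotic genes.

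The same medians say how far each group had come along its course. Between 4 and 6 hpf the median cleared gene went down by −1.62 in ConMO and by −1.34 in TUT4MO, and its level at 6 hpf was 8.20 against 11.2 CPM. The median zygotic gene went up by 3.02 in ConMO and by 2.24 in TUT4MO over the same hours, to 15.3 against 8.53 CPM. Cleared genes in TUT4MO had therefore also lost most of their level by 6 hpf, and zygotic genes had also come on. From 2 to 4 hpf the median cleared gene went from 36.3 to 29.7 CPM in ConMO and from 37.1 to 31.3 CPM in TUT4MO. In bulk RNA, less RNA in each cell and fewer cells of a type cannot be told apart. The pairs are matched by the labelled hour, and whether the embryos of a pair had reached the same stage was not tested.

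Over the 3 hours the class differences did not pass the test, and with 3 pairs none could. Cleared minus stable was 0.02, 0.06 and 0.43, with a mean of 0.17 ± 0.23 (SD, n = 3 hours) and a two-sided exact sign-flip permutation p of 0.25, the smallest that 3 pairs allow. Zygotic minus stable was 0, −0.01 and −0.64, with a mean of −0.21 ± 0.37 (SD, n = 3 hours; exact p = 0.5). At 2 and 4 hpf the median zygotic gene was under 1 CPM in both groups, where log2(CPM + 1) understates a change. The 130 zygotic genes with a mean of at least 5 CPM at 4 hpf had a median change of −0.08 at that hour. The part of the low levels in the first 2 values was not tested.

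Within the cleared class the difference at 6 hpf was larger for genes that the controls cleared more. Cut into 3 groups of equal size by the depth of the decline in the other sets, the median change was 0.31 for the weakest decline (1194 genes, 74.7% higher), 0.39 for the middle (1193 genes, 81.1% higher) and 0.58 for the strongest (1194 genes, 88.9% higher). At 4 hpf the same groups had medians of 0.01, 0.05 and 0.10. Within the zygotic class, 130 genes had a mean of at least 5 CPM in the rs1a pair already at 4 hpf, and their median change at 6 hpf was 0, with 50% higher. The 860 zygotic genes below that level at 4 hpf had a median of −0.72, with 89.4% lower.

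Seen from the genes past 2-fold at 6 hpf, the classes filled unequal parts. Of the 243 higher genes 206 (84.8%) were cleared genes, which make up 20.5% of the 8658 genes, 5 were stable and 10 zygotic. Of the 435 lower genes 170 (39.1%) were zygotic, against 6.32% of all genes, and 221 belonged to no class, 39 to the stable and 5 to the cleared class.

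A second ConMO library at 6 hpf, from set rs1b, was set beside the rs1a control of that hour. With classes drawn from rs2 alone, the rs1b control minus the rs1a control gave −0.05 for cleared minus stable and 0.22 for zygotic minus stable. TUT4MO minus the same rs1a control gave 0.33 and −0.61, outside both. Between the controls 173 of 7428 genes (2.33%) were past 2-fold and the SD of the change was 0.39. For TUT4MO these values were 528 of 7585 (6.96%) and 0.54. Both comparisons use the rs1a control, and the controls also differ by set.

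**Figure D2:**
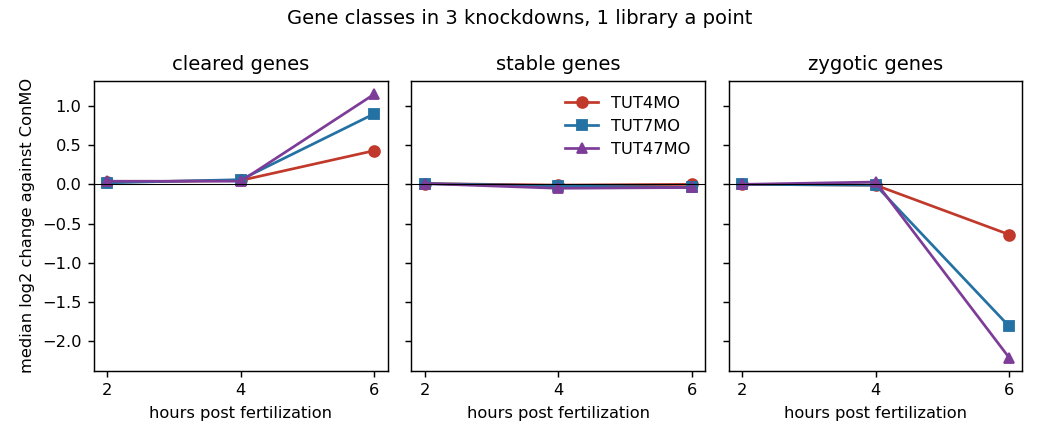
Median log2 change against ConMO (y axis) of 3581 cleared, 2865 stable and 990 zygotic genes at 2, 4 and 6 hpf (x axis) in TUT4MO, TUT7MO and TUT47MO, scaled over the 12 libraries of the set, each point 1 pair of libraries with a shared ConMO library at each hour. For TUT4MO the points lie within 0.05 of 0 at 2 and 4 hpf and at 0.43, 0 and −0.64 at 6 hpf. The median zygotic gene was under 1 CPM in ConMO and TUT4MO at 2 and 4 hpf, where log2(CPM + 1) understates a change.

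Among genes with a mean of at least 10 CPM in the pair and a gene symbol, those with the largest excess in TUT4MO at 6 hpf included maternal cell-cycle and signalling genes. The oocyte kinase gene wee2, whose product holds Cdk1 inactive, had 271, 290 and 63.1 CPM in ConMO and 260, 271 and 214 CPM in TUT4MO. At 6 hpf TUT4MO had thus kept most of its early level, while ConMO had not, a log2 change of 1.75. The lipid phosphatase gene ptenb, an inhibitor of PI3-kinase signalling, had 134, 127 and 29.3 CPM in ConMO and 135, 141 and 101 CPM in TUT4MO. The clock-linked repressor gene ciarta had 123, 131 and 21.9 CPM against 123, 129 and 76.5 CPM. These 3 genes belonged to the cleared class and their levels in both groups were alike until 4 hpf. RDM1, named for a RAD52 motif, had 4.42 CPM in ConMO and 17.3 CPM in TUT4MO at 6 hpf. The alkaline ceramidase gene acer1, the highest of these at 2.00, was of another kind: it was low at 4 hpf in both groups (2.13 and 2.48 CPM) and then went up to 14.2 CPM in ConMO and to 59.8 CPM in TUT4MO. In the rs1b control acer1 had 11.6 CPM, beside 10.2 CPM in the rs1a control and 43.8 CPM in TUT4MO on the scale of those 3 libraries.

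By the same limits, the genes with the largest deficit at 6 hpf had at most 2.77 CPM until 4 hpf. The retinoic acid synthesis gene aldh1a2 had 0.557, 0.427 and 73.0 CPM in ConMO and 0.646, 0.389 and 11 CPM in TUT4MO, a log2 change of −2.63. The hexokinase-like gene hkdc1 had 91.7 CPM at 6 hpf in ConMO and 12.1 CPM in TUT4MO, and kif26ab had 37.0 and 2.95 CPM. The ectonucleotidase gene entpd1 had 47.3 and 6.80 CPM, a log2 change of −2.63. All 4 came on in TUT4MO too, but to a far lower level than in the control. 1 of 2 entries of the zinc finger gene znf1053 had 25.4 and 2.84 CPM, but in the rs1b control it had 5.85 CPM where the rs1a control had 18.2 CPM, so the controls themselves were apart.

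**Figure D3:**
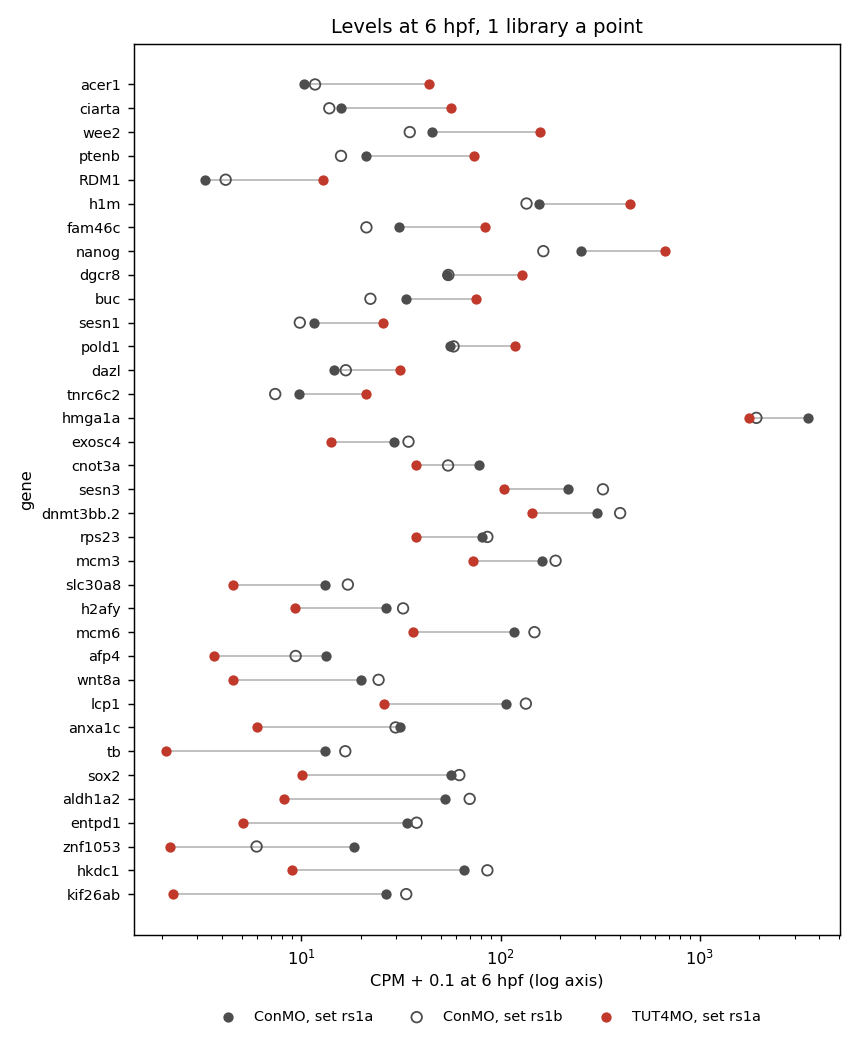
Level at 6 hpf (CPM + 0.1, log axis, scaled over the 3 libraries shown) of 35 genes, the 5 highest and 5 lowest at that hour and the extreme members of each gene list past 2-fold, in ConMO of set rs1a, ConMO of set rs1b and TUT4MO, 1 library a point. The genes were chosen by their values; the TUT4MO point lies above both controls for 14 and below both for 21.

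Gene lists are described by their medians at 6 hpf, where the median over all 16904 genes was −0.01. The class medians at that hour were 0.42 for cleared and −0.65 for zygotic genes. Whether a list departed from the class of its members was not tested. Limma called 0 members of any list over the hours (0% of all genes in each direction), so all values below are descriptions. List members past 2-fold were picked after their values were seen.

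Among maternal-effect and oocyte genes, 29 of 40 were higher at 6 hpf and 11 lower, with a median of 0.43 beside 0.01 and 0.02 at 2 and 4 hpf. Of the 34 members with a mean of at least 10 CPM in the pair, 7 were past 2-fold higher, beside 2.81% of all genes at that level. The linker histone gene h1m, the maternal form of histone H1, had 1090, 1110 and 218 CPM in ConMO and 1190, 1220 and 609 CPM in TUT4MO. The genome activator gene nanog had 386, 525 and 353 CPM in ConMO and 333, 508 and 920 CPM in TUT4MO, so that its level went down in ConMO after 4 hpf and up in TUT4MO. The deadenylation adaptor gene btg4, which links the CCR4-NOT complex to maternal mRNAs in mice, had 456, 202 and 8.90 CPM in ConMO and 499, 292 and 13.7 CPM in TUT4MO. For btg4 TUT4MO was higher at all 3 hours, by 0.13, 0.53 and 0.57, with the smallest p of the list (0.41 ± 0.12 over the hours; limma adjusted p = 0.833). The egg coat gene zp3a.1 followed with 0.31 ± 0.10 and then the growth factor gene bmp15 of the oocyte with 0.47 ± 0.19. The 1 member past 2-fold lower, an entry of wnt8a, was 0 at 2 and 4 hpf in both groups and belonged to the zygotic class.

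Germ plasm genes had the same median, 0.43, with 14 of 17 higher. The gene buc, whose product assembles the germ plasm, had 703, 503 and 46.8 CPM in ConMO and 776, 559 and 103 CPM in TUT4MO. The RNA-binding gene dazl had 144, 134 and 20.3 CPM against 160, 146 and 42.8 CPM. Both were a little higher in TUT4MO from the start and about 2-fold higher at 6 hpf. The Piwi gene piwil2 was at 0.13, 0.46 and 0.79, and the carbonic anhydrase gene ca15b, at 0.27, 0.23 and 0.19, kept an even difference.

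**Figure D4:**
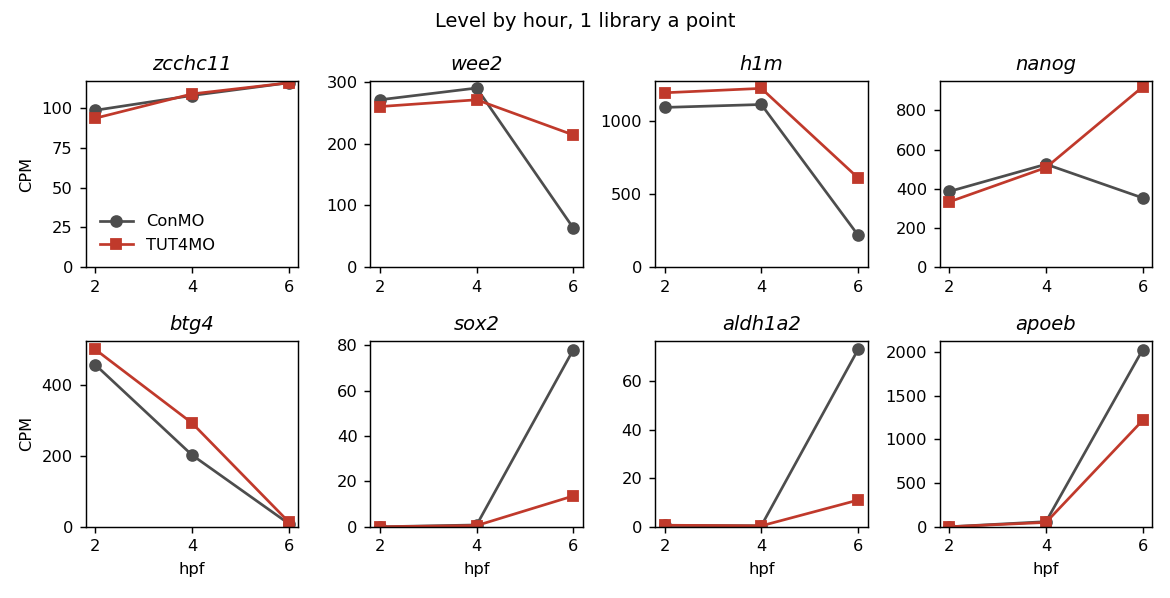
Level (CPM) of 8 genes at 2, 4 and 6 hpf in ConMO and TUT4MO, 1 library a point. The groups lie close together for zcchc11 at each hour; wee2, h1m and nanog are higher in TUT4MO at 6 hpf (214, 609 and 920 CPM against 63.1, 218 and 353 CPM), btg4 at 4 hpf (292 against 202 CPM), and sox2, aldh1a2 and apoeb are lower at 6 hpf.

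Lists of embryonic cell types were lower at 6 hpf. Of 49 mesendoderm genes 38 were lower, with a median of −0.37, and 10 of the 43 with at least 10 CPM were past 2-fold, beside 5.02% of all genes at that level. Beside aldh1a2 these included the brachyury gene tb, with 18.2 CPM in ConMO and 2.71 CPM in TUT4MO at 6 hpf, and the segmentation gene mespaa, with 22.9 and 3.85 CPM. The Notch ligand gene dlc was lower at all 3 hours, at −0.15, −0.69 and −0.95 (−0.59 ± 0.20 over the hours; limma adjusted p = 0.833). Not all members were lower: the Nodal ligand gene ndr1 had 14.6 CPM in ConMO and 24.7 CPM in TUT4MO.

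Of 40 genes of ectoderm and the enveloping layer, the embryo's outer epithelium, 31 were lower, with a median of −0.40. The neural transcription factor gene sox2 had 0, 0.800 and 78.1 CPM in ConMO and 0, 0.535 and 13.6 CPM in TUT4MO, and the annexin gene anxa1c had 43.2 and 8.03 CPM at 6 hpf. The neural plate gene zic2a was at −0.89 and the adhesion gene epcam, a maternal mRNA of the stable class, at −0.35, while the BMP inhibitor gene bambia was at 0.49. The yolk syncytial layer had the lowest median of all lists, −0.64, with 12 of 14 tested members lower. Its lipoprotein gene apoeb had 2030 CPM in ConMO and 1220 CPM in TUT4MO at 6 hpf, its transcription factor gene gata6 155 and 101 CPM, and its early regulator mxtx2 63.1 and 110 CPM. Between the rs1b and the rs1a control the median of this list was −0.25, that of ectoderm 0 and that of mesendoderm 0.17.

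Early zygotic regulators, the first genes transcribed, had a median of −0.05 with 19 of 39 higher and 20 lower. Its member her3 is described above. The activators of the zygotic genome and their partners had a median of −0.01 over 13 genes, with h1m and nanog higher and the chromatin protein gene hmga1a at 4910 CPM in ConMO and 2430 CPM in TUT4MO. On the scale of the 3 libraries at 6 hpf hmga1a had 3520 CPM in the rs1a control, 1930 CPM in the rs1b control and 1780 CPM in TUT4MO, so the controls themselves were apart. At 2 hpf the acetyltransferase genes crebbpb and ep300a were at −0.54 and −0.41.

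The machinery of RNA tailing and decay was mixed. Of 10 other terminal nucleotidyltransferases 5 were higher and 5 lower, with fam46c, a noncanonical poly(A) polymerase gene, at 43.0 CPM in ConMO and 114 CPM in TUT4MO, and the poly(A) polymerase genes papolg and papola at 0.65 and −0.95. Among 22 readers of oligo-uridine tails and let-7 pathway genes, with a median of 0.05, the microRNA processing gene dgcr8 had 74.8 and 175 CPM, and lsm14b, a maternal mRNP gene, 31.5 and 65.1 CPM. The GW182 family genes went apart, with tnrc6c2 at 1.03 and tnrc6a at −0.47. Of 28 deadenylation genes 16 were higher and 12 lower (median 0.16). The CCR4-NOT genes went both ways. On the lower side cnot3a, cnot4a and cnot1 were at −1.08, −0.40 and −0.55. On the higher side cnot3b, cnot4b, cnot6b and cnot8 were at 0.49, 0.82, 0.59 and 0.56. For cnot1 and cnot4a the controls were themselves apart, with TUT4MO between them (141, 80.9 and 98.4 CPM, and 16.5, 8.52 and 12.6 CPM, in the rs1a control, the rs1b control and TUT4MO). Of 39 decapping and decay genes 30 were lower (median −0.15), among them the exosome gene exosc4 at −1.03, the decapping enzyme gene dcp2 at −0.41 and the exonuclease gene xrn1 at −0.19. Between the controls of rs1b and rs1a the medians were −0.38 for the nucleotidyltransferases and −0.34 for deadenylation genes, farther from 0 than in TUT4MO.

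All 80 cytosolic ribosomal protein genes were lower at 6 hpf, with a median of −0.43 after 0.05 and −0.05 at 2 and 4 hpf. The differences varied in size. At 6 hpf rpl21 had 147 and 92.4 CPM, rps19 128 and 92.3 CPM and rpl28 114 and 91.1 CPM. The 1 member past 2-fold was rps23, at −1.12. The median between the controls was 0.17, and ribosomal pseudogenes can share reads with these genes. The 13 mitochondrially encoded protein genes were all lower, with a median of −0.22 and examples mt-nd1, mt-nd5 and mt-nd4, of respiratory complex I, at −0.31, −0.29 and −0.25. The rs1b control lay −1.43 from the rs1a control for this list, and the part that mitochondrial RNA recovery had in the result was not tested. Of 17 histone genes 13 were lower (median −0.27), including the variant genes h2afy at −1.49, h3f3a at −0.33 and h3f3b.1 at −0.34, with h1m the exception.

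Genes of DNA replication and mitosis held members of both directions, with a median of −0.12 over 58 genes. The helicase gene mcm6, zygotic by class, had 163 and 49.3 CPM at 6 hpf and mcm3 had 226 and 98.8 CPM, whereas the cleared gene gins2 was at 0.18, 0.47 and 0.44. The polymerase gene pold1 was at 1.05 and mcm7 at −0.42. Genes of DNA and RNA modification had a median of −0.21 over 25 genes, with the DNA methyltransferase gene dnmt3bb.2 at 426 and 196 CPM, the m6A methyltransferase gene mettl3 at −0.51, dnmt3ab at −0.28 and the demethylase gene fto at 0.34.

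Lists of p53, interferon and stress genes had medians near the background. Both groups were injected, so a response to injection that they share would not show in this comparison. The 31 p53 targets had medians of 0, 0.05 and −0.04, with the p53 regulator gene mdm2 at 119 and 136 CPM at 6 hpf, sesn1 at 1.07, sesn2 at 0.42 and sesn3, zygotic by class, at −1.09. The 17 tested interferon-induced genes had a median of 0.09 and no member reached 10 CPM in the 6 hpf pair. Their smallest p belonged to pkz, gbp2 and ifit8, at 0.43, 0.32 and 0.38. The 34 stress and immediate-early genes had a median of 0.06, with atf3 at 0.55, the chaperone gene hsp90b1 at 0.90 and hsp70l at 1.2. For hsp70l the rs1b control had 5.95 CPM, above the 2.90 CPM of TUT4MO and the 0.827 CPM of the rs1a control on the scale of those libraries. Of later-stage muscle, blood and neural genes only 8 could be tested, with a median of −0.13 and with neurog1 at −0.29 and ckma at −0.24. Both of these were near the floor at 6 hpf. In ConMO and TUT4MO neurog1 had 0.323 and 0.082 CPM, and ckma had 1.35 and 0.984 CPM. In this list the leukocyte actin-bundling gene lcp1 had 0, 0 and 149 CPM in ConMO and 0, 0 and 35.5 CPM in TUT4MO.

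Of the genes named above, TUT4MO also lay between the controls of rs1a and rs1b at 6 hpf, on the scale of those libraries, for TMSB15A, arl13a, zp3a.1, xrn1, ep300a, dnmt3ab, h3f3b.1, mt-nd1, mt-nd5, mt-nd4, sap130b, sec24a, zp2.6 and the 5_8S_rRNA entry.

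**Figure D5:**
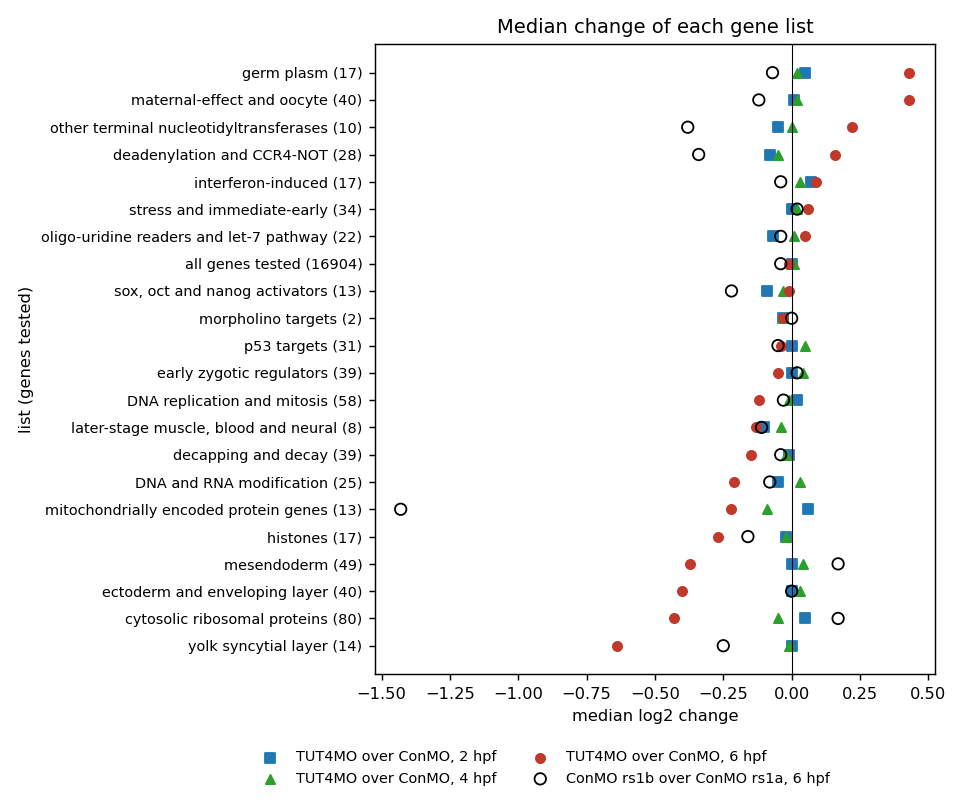
Median log2 change (x axis) of 21 gene lists and of all genes tested (y axis, number tested in brackets) for TUT4MO over ConMO at 2, 4 and 6 hpf, each from 1 pair of libraries, with the rs1b control over the rs1a control at 6 hpf as open circles. Medians at 2 and 4 hpf lie within 0.1 of 0, and those at 6 hpf run from −0.64 for the yolk syncytial layer to 0.43 for germ plasm and maternal-effect genes.

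The TUT7 and double knockdowns, read against the same ConMO libraries and scaled over 12 libraries, give the values beside which those of TUT4MO can be placed. At 6 hpf cleared minus stable was 0.43 in TUT4MO, 0.94 in TUT7MO and 1.19 in TUT47MO, and zygotic minus stable was −0.64, −1.77 and −2.16. Genes past 2-fold in either direction made up 7.72%, 31.7% and 39.0%. At 2 and 4 hpf cleared minus stable was at most 0.06 in TUT4MO, 0.08 in TUT7MO and 0.09 in TUT47MO. The TUT7MO and TUT47MO libraries at 4 hpf had 44.7 and 44.6% of reads on the mitochondrial contig entries, where ConMO and TUT4MO had 14.4 and 13.5%, and the part of this in the 4 hpf values was not tested.

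Direct comparisons with the other knockdowns, which need no control library, called no gene over the hours. A difference held by 1 hour alone enlarges the residual of these fits, so 0 calls do not show that the knockdowns were alike. TUT7MO minus TUT4MO gave 0 higher and 0 lower of 16832 genes in limma (0% each), with 247 at an unadjusted p under 0.05 (1.47%), and edgeR called 0. TUT47MO minus TUT4MO gave 0 and 0 of 16769 (0% each), with 426 at that level (2.54%), and edgeR called 0. The fits of the difference against the hour, added after the data were seen, also called 0 genes each in limma, with 16.1% and 14.9% of genes at an unadjusted p under 0.05. Without the 6 hpf pair limma called 4 and 5 entries higher, all of them Metazoa_SRP. The smallest p for TUT7MO minus TUT4MO belonged to suco at 0.47 ± 0.11, HSH2D at 0.55 ± 0.13 and znf1116 at −0.75 ± 0.18, and for TUT47MO minus TUT4MO to cth at −0.95 ± 0.19, myo10 at −0.57 ± 0.11 and an entry of Metazoa_SRP at 0.74 ± 0.15 (limma adjusted p = 0.799 and 0.736). Cleared minus stable differed between TUT7MO and TUT4MO by 0, 0.02 and 0.50 at the 3 hours (mean 0.17 ± 0.28 SD, n = 3; two-sided exact sign-flip p = 0.5) and between TUT47MO and TUT4MO by 0.01, 0.04 and 0.75 (0.27 ± 0.42; exact p = 0.25). For zygotic minus stable the differences at 6 hpf were −1.06 and −1.43 (exact p = 1 and 0.75 over the hours). The differences thus stood at 6 hpf, where each knockdown has 1 library.

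Some of the genes named for TUT4MO had other levels in the other knockdowns, with acer1, arl13a and bambia among those on the other side of ConMO in both. The log2 changes of arl13a at 6 hpf were 0.35 in TUT4MO, −1.72 in TUT7MO and −2.05 in TUT47MO. Those of bambia were 0.5, −1.51 and −1.56. At 6 hpf acer1 had 13.9 CPM in ConMO, 58.7 CPM in TUT4MO, 1.99 CPM in TUT7MO and 2.74 CPM in TUT47MO. The level of ldlra was 0.473, 18.0, 0.797 and 3.48 CPM in the same order, and that of gbx2 0.368, 4.75, 0.465 and 0.736 CPM. For her3 it was 9.15, 0.322, 16.9 and 8.36 CPM. For acer1, ldlra, gbx2 and her3 the TUT4MO library stood alone at its end of the range. The cleared genes wee2, at 61.5, 210, 157 and 228 CPM, and ciarta, at 21.3, 75.1, 55.9 and 97.4 CPM, kept their direction. RDM1 had 4.31, 17.0, 4.92 and 16.9 CPM and ptenb 28.6, 99.0, 46.8 and 103 CPM, so for both the TUT7MO level lay nearer to ConMO. For aldh1a2, at 71.1, 10.8, 0.864 and 0.936 CPM, and the zygotic gene hkdc1, at 89.4, 11.9, 5.65 and 1.40 CPM, the TUT4MO level lay between those of ConMO and the other knockdowns. With kif26ab, at 36.1, 2.90, 2.79 and 1.54 CPM, TUT4MO was as low as TUT7MO. No test separates these libraries at a single hour.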

How the data were processed

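Per the labels' protocols, ERCC spike-in RNA was added, ribosomal RNA was removed and the libraries were stranded and paired-end. STAR 2.5.3a, RSEM and the genome build GRCz10 are named, per the submitters' processing notes, without settings. The deposited values of set rs1b are estimated counts. Those the authors deposited for rs1a and rs2 are a signal: each library's estimated counts times a single number (0.749 to 1.275 in rs1a), the source of which no label states. It was read from the step between low values and divided out. Afterwards 85.4 to 90.5% of values up to 20 reads in the 6 libraries were whole within 0.02. Of 32660 entries 555 (1.7%) had missing values and were left out. ERCC values were not used here, so no value is an amount per embryo.

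Levels were scaled by TMM (edgeR 4.0.16), genes kept by filterByExpr (minimum count 10, grouped by hour), and log2(CPM + 1) fitted with limma 3.58.1 with a mean-variance trend in R 4.3.3, with hour and morpholino as terms (2 residual degrees of freedom). The hour pairs the libraries. The labels give no replicate numbers and do not say whether the hours of a set came from 1 clutch. The p-values rest on the spread of the change between the 3 pairs, which includes any differences between hours. Limma drew it toward the spread of other genes (median prior degrees of freedom 3.51 over the hours, 14.2 for the change with the hour). A second fit took morpholino by hour (1 residual degree of freedom). Class differences used exact sign-flip permutation tests. Both limma fits, but not the class tests, were run on simulated data. Those data had 1 setting of spread for all genes and effects that were even or linear over the hours. They do not cover a change held by 1 hour alone.

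The members, gene lists and tests were chosen with earlier results of these data known. Named genes were those of TUT4 and TUT7 and the 5 smallest p in each direction over the hours where none passed. Also named were the 5 highest and 5 lowest changes at each hour among genes of at least 10 CPM with a gene symbol. To these came the 3 steepest called slopes each way, and up to 3 members of each of 21 lists with the smallest p. The 5 in each direction over the hours also needed a gene symbol, a mean of at least 5 CPM and the same sign throughout. Of 683 list names 645 were matched. Kinase genes that the pattern for ribosomal proteins had also caught were removed from that list after their values were seen. Alternatives were median-of-ratios and deposited scaling, edgeR and DESeq2 1.42.0 on rounded reads, other filters and pseudocounts, all 12 libraries of the set, no hour block, and each hour left out. Gene symbols come from the deposited table, where 737 symbols are shared by several entries. A few genes that the rule names are not reported here.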

Additional observations from a re-analysis of the deposited data

Results flagged for a closer look

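Limma's interaction of morpholino and hour (adjusted p under 0.05) marked 58 genes whose change rose with the hour and 91 whose change fell. No hour had a replicate in that fit. The 3 steepest called slopes in each direction, in log2 units per hour, were 0.93 for ldlra, 0.56 for mtmr3, 0.54 for gbx2, −0.83 for kif26ab, −0.74 for her3 and −0.72 for dpp7. For ldlra and gbx2 the TUT4MO library at 6 hpf (18.4 and 4.84 CPM) stood apart from the other 5 libraries (0.485 to 5.34 and 0.373 to 0.789 CPM). For kif26ab and dpp7 the ConMO library at 6 hpf (37.0 and 17.1 CPM) did so. The entry of mtmr3 stayed at or under 1.23 CPM.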

How the results depend on the processing

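Over the hours, the counts of 0 higher and 0 lower genes held under median-of-ratios scaling, deposited scaling, edgeR, other filters and pseudocounts, all 12 libraries, removal of the mitochondrial contig entries and no replicate block (0 and 0; 6 genes at an unadjusted p under 0.05 without the block, 286 with it). Without the block the differences between hours stay in the residual, so the 0 calls of that fit add little. The exceptions to 0 calls were DESeq2, with 3 lower, and the fits leaving out an hour, which gave 0 to 1 higher. The 1 call, without the 2 hpf pair, was 1 of the 2 adob entries (4.07, limma adjusted p = 0.0327), whose partner was lower at the same hours. Leaving out an hour gave 0 to 4 higher for TUT7MO minus TUT4MO and 0 to 5 for TUT47MO minus TUT4MO, in both without the 6 hpf pair. The change of zcchc11 was 0.01 under deposited scaling and ran from −0.02 to 0.03 with an hour left out, and that of ZCCHC6 ran from −0.05 to 0.01, so neither has a sign that can be read. Counts of genes rising and falling with the hour were 229 and 395 under median-of-ratios scaling, 386 and 621 under deposited scaling, 2 and 7 in edgeR, 91 and 100 with a pseudocount of 0.1, 101 and 306 with 5, 0 and 0 over all 12 libraries and 141 and 175 with 10 reads in at least 3 libraries; the last 2 alternatives were chosen after seeing the data, and the cause was not tested. At 2-fold, a pseudocount of 5 left 110 higher at 6 hpf and 1 at 4 hpf, where median-of-ratios scaling also left 1. With no filter there were 5 lower at 2 hpf, 6 higher and 15 lower at 4 hpf and 442 higher and 976 lower at 6 hpf, and with at least 5 CPM 1 was lower at 2 hpf. The class medians at 6 hpf ran from 0.28 to 0.48 for cleared and from −0.72 to −0.46 for zygotic genes over the scalings, filters and pseudocounts. Depth limits genes under a few CPM, and each hour rests on 1 library a group.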
